A study of Mus musculus with 5 samples.

Results

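The genes described here are 10 markers and drivers of the mesenchymal, invasive state of melanoma cells: Axl, Cdh1, Cdh2, Snai2, Zeb1, Zeb2, Twist1, Tcf4, Vim and Fscn1. They were taken by symbol through the GENCODE M21 annotation of the mouse build GRCm38, and all 10 were found among the 54100 genes of the deposited table. RNA was measured by strand-specific, poly(A)-selected sequencing in B16F10, a pigmented mouse skin melanoma line, in 5 libraries of 1 group each. Cells of dynamic suspension culture and of conventional 3D culture had a wild-type genotype label. A library labelled HIF-1α overexpression and a library labelled HIF-1α knockdown stood beside shControl, which also carries the wild-type label. No treatment is given for any group. The labels give every group the same serum-free shaking culture at 60 to 80 rpm for 7 to 10 days, so only the titles of the samples tell the cultures apart. As 3 repeats were pooled in each library, there is 1 library per group, no replicate error and no test of a condition. No source used here gives the constructs, their delivery or the number of clones.

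Tumour cells can trade epithelial adhesion for a migratory, mesenchymal form, a change called the epithelial-mesenchymal transition. It is driven by the zinc finger factors of the SNAI and ZEB families and by basic helix-loop-helix factors such as TWIST1, which repress E-cadherin. Melanoma cells come from the neural crest and run a variant of this programme called phenotype switching. In human melanoma, a melanocytic state with high MITF, SNAI2 and ZEB2 is set against an invasive state with high AXL, ZEB1 and TWIST1 and low MITF.

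The libraries have limits that touch every value below. The deposited values summed to 61014260 in dynamic suspension, 61267892 in conventional 3D culture and 59493240 in shControl, and to 15393189 and 14803426 in the libraries labelled overexpression and knockdown. By their pattern the first 3 are estimated counts and the other 2 plain counts, so in a ratio of either labelled line to shControl the kind of value and the group cannot be told apart. Hif1a, the targeted gene, stood at 384 CPM (counts per 1000000, scaled by the trimmed mean of M values, TMM) in the library labelled overexpression, 95.1 CPM in the library labelled knockdown and 61.3 CPM in shControl. In dynamic suspension it stood at 390.5 CPM, close to the library labelled overexpression, and in conventional 3D culture at 542 CPM, above that library. Both cultures hold estimated counts. Hif1a in the knockdown library was thus not below shControl, against its label, but the kinds of value differ between these libraries. Of the exon bases of Hif1a, 478 overlap other genes. The deposited column of the library labelled knockdown carries the bare name of the cell line. That of the library labelled overexpression carries the same name with an added letter. Whether the knockdown label holds cannot be told from this Hif1a value or from the column name. The library is called the library labelled knockdown throughout. Melanocytic genes were plentiful in all 5 libraries, with Sox10 between 471 and 698 CPM. Mitf lay between 139.5 CPM in the library labelled knockdown and 350.4 CPM in dynamic suspension. The epithelial marker Epcam had 0 counts in every library. Summed over 10 fibroblast markers, the level was 47.0 CPM in dynamic suspension, 137 in conventional 3D culture, 17.0 in the library labelled overexpression, 39.9 in the library labelled knockdown and 47.1 in shControl. In the library labelled overexpression 5 of these 10 markers were at 0 counts, among them Col1a2 and Dcn, and in the library labelled knockdown 4 were, Dcn among them. The sum of the library labelled knockdown hides opposite directions, with 2 of 7 measured markers higher than in shControl and 3 lower. Pdgfrb alone stood at 24.6 CPM there, against 5.91 CPM in shControl, whereas Col3a1 had 1 count against 536. In bulk RNA, fewer cells of a type and less RNA per cell cannot be told apart. Nor can these markers be assigned to fibroblasts or to the melanoma cells.

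**Figure D1:**
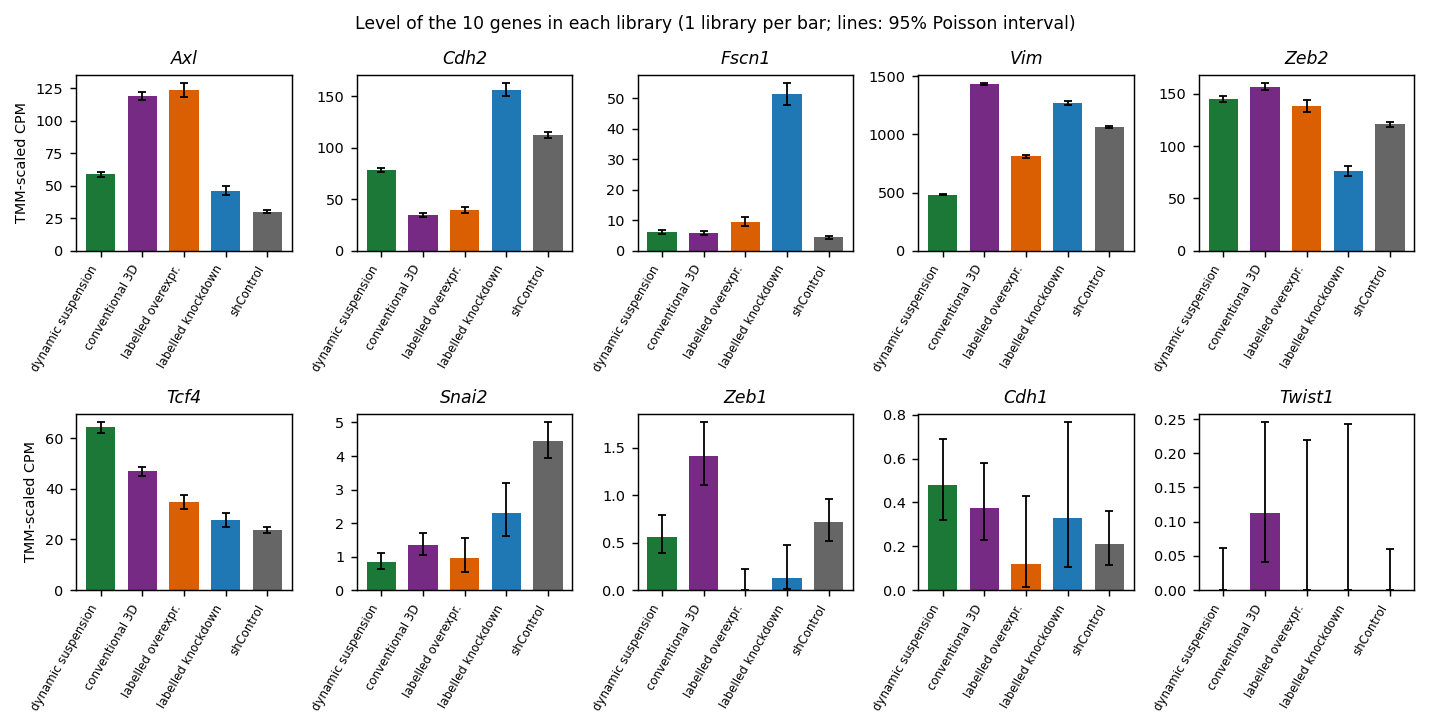
TMM-scaled CPM of the 10 genes in the 5 libraries, 1 bar per library on a linear axis from 0, with 95% Poisson counting intervals. Axl was highest in the library labelled overexpression and in conventional 3D culture, where Cdh2 was lowest, and Fscn1 stood at 51.3 CPM in the library labelled knockdown against 4.35 to 9.47 CPM elsewhere.

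Axl encodes a receptor tyrosine kinase of the TAM family, whose ligand is Gas6 and whose level marks invasive, drug-tolerant human melanoma cells. The gene lies on chromosome 7, 25757273 to 25788705, minus strand (ENSMUSG00000002602). It stood at 58.8 CPM in dynamic suspension, 119 CPM in conventional 3D culture, 123.5 CPM in the library labelled overexpression, 46.2 CPM in the library labelled knockdown and 30.1 CPM in shControl. The library labelled overexpression and conventional 3D culture were the high ones and differed by less than counting error (log2 ratio 0.05, 95% counting interval -0.02 to 0.12). Every other neighbouring pair in the order differed beyond counting error. Axl was 4.11-fold higher in the library labelled overexpression than in shControl (log2 ratio 2.04, interval 1.95 to 2.13). Between the labelled lines, whose values are both plain counts, it was 2.67-fold higher in overexpression than in knockdown (1.42, interval 1.29 to 1.54). In dynamic suspension Axl was below its level in conventional 3D culture, at a log2 ratio of -1.02 (interval -1.08 to -0.96), which sits at the edge of 2-fold. The value moved to -0.83 with scaling by total counts, to -0.95 with counts thinned to the smallest library and to -0.99 with TMM from protein-coding genes that overlap no other gene, all under 2-fold. Both culture methods lay above shControl, conventional 3D culture by 3.96-fold and dynamic suspension by 1.96-fold, which passed 2-fold when TMM was taken from that pair alone or the counts were thinned. Thus the ratio of Axl to shControl ran from 1.54-fold in the library labelled knockdown to 4.11-fold in the library labelled overexpression.

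Of the 4 other TAM genes, 3 or 4 were measured in each comparison. Of these, 0 were beyond 2-fold in 5 of the 6 comparisons, and Pros1 was in overexpression against knockdown. The list's medians lay between -0.04 and 0.35. Tyro3, a sister receptor, was 24.5 CPM in dynamic suspension, 23.4 in conventional 3D culture, 23.5 in the library labelled overexpression, 39.3 in the library labelled knockdown and 22.2 in shControl, so its highest library was among the low ones for Axl. Mertk, the other receptor, stayed between 1.57 and 2.60 CPM. Pros1, protein S, which binds Tyro3 and Mertk, was 79.4 CPM in the library labelled overexpression and 32.4 CPM in the library labelled knockdown (log2 ratio 1.29, interval 1.14 to 1.45), with shControl at 49.3 CPM. The ligand gene Gas6 was near or below 1 CPM: 37 counts in dynamic suspension, 62 in conventional 3D culture, 0 and 1 in the libraries labelled overexpression and knockdown, and 54 in shControl. Per kilobase of exon and within a library, Axl exceeded Tyro3 by 2.95-fold in dynamic suspension and 6.26-fold in conventional 3D culture. The same within-library ratio was 6.48 in the library labelled overexpression, 1.45 in the library labelled knockdown and 1.67 in shControl.

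The promoter of Axl is shown because Axl was beyond 2-fold in 4 of the 6 comparisons. It is the RefSeq window from 250 bases before to 50 after the start (GRCm38.p6, chr7:25788684-25788983, minus strand), printed 5′ to 3′. Searched on both strands, it holds none of the E-box CACCTG, bound by SNAI and ZEB factors, nor ACGTG or GCGTG, the core of the site bound by HIF-1, so no base is in capitals.
Axl: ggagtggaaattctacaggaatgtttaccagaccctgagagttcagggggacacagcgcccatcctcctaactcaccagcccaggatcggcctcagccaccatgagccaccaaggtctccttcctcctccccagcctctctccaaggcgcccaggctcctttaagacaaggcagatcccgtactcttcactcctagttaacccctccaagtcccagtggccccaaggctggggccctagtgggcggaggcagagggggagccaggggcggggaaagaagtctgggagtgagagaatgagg
Of 32817 RefSeq promoter windows of this length, 20.2% hold CACCTG and 43.8% hold ACGTG or GCGTG, so the absence of these letters from one window says nothing about the factors.

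Cdh2 encodes N-cadherin, the adhesion molecule that mesenchymal and neural crest cells carry in place of E-cadherin (ENSMUSG00000024304, chromosome 18, 16588877 to 16809246, minus strand). It stood at 78.4 CPM in dynamic suspension, 34.6 CPM in conventional 3D culture, 39.6 CPM in the library labelled overexpression, 157 CPM in the library labelled knockdown and 112 CPM in shControl. The libraries with the most Axl, conventional 3D culture and the library labelled overexpression, had the least Cdh2. Cdh2 was 3.95-fold lower in the library labelled overexpression than in the library labelled knockdown (log2 ratio -1.98, interval -2.11 to -1.86) and 2.83-fold lower than in shControl (-1.50, interval -1.62 to -1.39). Dynamic suspension had 2.26-fold more Cdh2 than conventional 3D culture (1.18, interval 1.10 to 1.26), the opposite direction to Axl. Against shControl, conventional 3D culture was 3.24-fold lower (-1.69, interval -1.77 to -1.62), and dynamic suspension had a log2 ratio of -0.52.

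Cdh1 encodes E-cadherin, the epithelial cadherin through which melanocytes attach to keratinocytes (ENSMUSG00000000303, chromosome 8, 106603351 to 106670246, plus strand). It was close to the detection limit throughout, with 29 counts in dynamic suspension, 20 in conventional 3D culture, 2 in the library labelled overexpression, 5 in the library labelled knockdown and 13 in shControl. These are 0.48, 0.376, 0.119, 0.328 and 0.211 CPM in the same order, and all 10 pairs of libraries lay below the minimum of 1 CPM used for calls. Per kilobase and within a library, Cdh2 exceeded Cdh1 by 92.6-fold in dynamic suspension (interval 64.4 to 138) and 52.3-fold in conventional 3D culture (33.7 to 85.8). In the library labelled overexpression the ratio was 189 (52.1 to 1562), in the library labelled knockdown 270 (116 to 833) and in shControl 301 (176 to 566). N-cadherin RNA thus outweighed E-cadherin RNA in all 5 libraries, least in conventional 3D culture.

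Vim encodes vimentin, the intermediate filament of mesenchymal cells (ENSMUSG00000026728, chromosome 2, 13573927 to 13582826, plus strand). It was the most abundant of the 10 genes per kilobase in every library, at 102 to 302 CPM per kilobase, between percentiles 96.6 and 99 of 12848 measured genes. Its level was 483 CPM in dynamic suspension, 1432 CPM in conventional 3D culture, 813 CPM in the library labelled overexpression, 1273 CPM in the library labelled knockdown and 1065 CPM in shControl. Dynamic suspension was the lowest library and conventional 3D culture the highest, a 2.97-fold difference (log2 ratio -1.57, interval -1.59 to -1.55). Dynamic suspension was also 2.20-fold lower than shControl (-1.14, interval -1.16 to -1.12). Neither labelled line was beyond 2-fold of shControl, with log2 ratios of -0.39 for overexpression and 0.26 for knockdown. Fibroblast markers, whose cells also express vimentin, were at a summed 47.0 CPM in dynamic suspension and 137 CPM in conventional 3D culture. Their part in the difference of Vim was not tested. In dynamic suspension and shControl the sums were 47.0 and 47.1 CPM.

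Fscn1 encodes fascin, which bundles actin filaments in the filopodia and invadopodia of invading cells (ENSMUSG00000029581, chromosome 5, 142960343 to 142973185, plus strand). It was low in 4 libraries and high in 1: 5.99 CPM in dynamic suspension, 5.86 CPM in conventional 3D culture, 9.47 CPM in the library labelled overexpression, 51.3 CPM in the library labelled knockdown and 4.35 CPM in shControl. The library labelled knockdown was 11.8-fold above shControl (log2 ratio 3.54, interval 3.36 to 3.76), the largest of the ratios called beyond 2-fold among the 10 genes in the 6 comparisons. The same library exceeded dynamic suspension 8.55-fold and conventional 3D culture 8.74-fold. The library labelled overexpression, also of plain counts, was 5.41-fold lower than the library labelled knockdown (-2.43, interval -2.69 to -2.19). Its level in the library labelled overexpression was itself 2.18-fold above shControl (1.11, interval 0.83 to 1.41). Dynamic suspension and conventional 3D culture differed by less than counting error (0.03, interval -0.19 to 0.25). No exon base of Fscn1 overlaps another annotated gene, and none of the 50-base stretches of its transcripts occurs in a transcript of another gene.

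The promoter of Fscn1 is shown because this gene had the largest ratio called beyond 2-fold. The window (GRCm38.p6, chr5:142960105-142960404, plus strand) holds 0 matches to CACCTG and 1 match to GCGTG, in capitals, 57 bases before the start.
Fscn1: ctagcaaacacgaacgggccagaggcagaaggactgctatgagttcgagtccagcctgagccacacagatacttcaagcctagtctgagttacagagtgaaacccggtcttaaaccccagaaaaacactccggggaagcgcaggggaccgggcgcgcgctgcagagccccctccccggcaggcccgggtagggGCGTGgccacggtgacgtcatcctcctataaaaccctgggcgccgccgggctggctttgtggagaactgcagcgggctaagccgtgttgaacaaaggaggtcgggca
GCGTG occurs in 32.4% of all promoter windows, so the match is only a description, and binding was not tested.

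Zeb2 encodes a zinc finger factor needed in the neural crest and, in human and mouse melanocytes, for differentiation (ENSMUSG00000026872, chromosome 2, 44983632 to 45117395, minus strand). Among the 10 genes, Zeb2 was the most abundant E-cadherin repressor per kilobase. It stood at 145 CPM in dynamic suspension, 157 CPM in conventional 3D culture, 138 CPM in the library labelled overexpression, 76.1 CPM in the library labelled knockdown and 121 CPM in shControl. It was the steadiest of the 7 genes that averaged at least 1 CPM, spanning 2.06-fold, and was beyond 2-fold in none of the 6 comparisons. The library labelled knockdown was the lowest, 1.59-fold below shControl (log2 ratio -0.67, interval -0.76 to -0.58), and the library labelled overexpression was 1.82-fold above it (0.86, interval 0.76 to 0.97). Dynamic suspension had a log2 ratio of -0.12 to conventional 3D culture, which turned to 0.07 when scaled by total counts. Of the 19942 merged exon bases of Zeb2, 658 overlap other genes, among them the antisense gene Zeb2os, and no source used here says whether counting used the strand.

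Zeb1, the sister gene, marks the invasive state in human melanoma (ENSMUSG00000024238, chromosome 18, 5591860 to 5775467, plus strand). It was scarce, with 34 counts in dynamic suspension, 75 in conventional 3D culture, 0 in the library labelled overexpression, 2 in the library labelled knockdown and 44 in shControl. The highest level, in conventional 3D culture, was 1.41 CPM, against 0.714 CPM in shControl (log2 ratio 0.93, interval 0.42 to 1.55). In dynamic suspension Zeb1 was 0.563 CPM, or 2.50-fold lower than in conventional 3D culture (interval of the log2 ratio -1.95 to -0.72), with the mean of the pair just under 1 CPM. With counts thinned to the smallest library the log2 ratio was -0.41, and that of conventional 3D culture to shControl turned to -0.19. By a floor of 3 counts, the library labelled overexpression was at least 4-fold lower than shControl, and with the error of the 44 counts the ratio reaches up to 0.321. The library labelled knockdown, with 2 counts, had a ratio to shControl of 0.184 (interval 0.0216 to 0.704). The low libraries are both of plain counts and the others of estimated counts, so here the kind of value and the group cannot be told apart. Per kilobase, Zeb2 exceeded Zeb1 by 132-fold in dynamic suspension, 57.3-fold in conventional 3D culture and 87.0-fold in shControl. In the library labelled overexpression the ratio was at least 399 and in the library labelled knockdown 298 (interval 82.4 to 2466).

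Snai2 encodes SLUG, a zinc finger repressor of E-cadherin that the neural crest and normal melanocytes use (ENSMUSG00000022676, chromosome 16, 14705852 to 14709385, plus strand). Its level was 0.844 CPM in dynamic suspension, 1.35 CPM in conventional 3D culture, 0.953 CPM in the library labelled overexpression, 2.30 CPM in the library labelled knockdown and 4.45 CPM in shControl. shControl was the highest library, and all others lay below it. Snai2 was 5.27-fold lower in dynamic suspension than in shControl (log2 ratio -2.33, interval -2.86 to -1.96), 3.29-fold lower in conventional 3D culture (-1.68, interval -2.11 to -1.34) and 4.67-fold lower in the library labelled overexpression (-2.17, interval -3.05 to -1.50). The library labelled knockdown was 1.94-fold lower than shControl (-0.94, interval -1.50 to -0.44) and so just inside 2-fold. Between the labelled lines, Snai2 was 2.41-fold lower in overexpression than in knockdown (-1.23, interval -2.22 to -0.38), on 16 counts against 35. The library labelled overexpression could not be separated from dynamic suspension (0.17, interval -0.74 to 1.01) or from conventional 3D culture (-0.49, interval -1.39 to 0.29) beyond counting error.

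Twist1, a basic helix-loop-helix factor of the cranial mesenchyme, was the rarest of the 10 genes (ENSMUSG00000035799, chromosome 12, 33957671 to 33959829, plus strand). It had 6 counts in conventional 3D culture (0.113 CPM) and 0 in each of the other libraries. By a floor of 3 counts, 0 counts allow up to 0.0497 CPM in dynamic suspension and 0.0487 in shControl. For the libraries labelled overexpression and knockdown the limits are 0.179 and 0.197 CPM. Those of dynamic suspension and shControl may be too low, because their estimated counts pile up at 4. There, 926 and 811 genes stood at 4 deposited counts, against 425 and 482 at 3. By the same floor dynamic suspension was at least 2.27-fold lower than conventional 3D culture, a bound that is approximate because both hold estimated counts. With the counting error of the 6 counts, the ratio itself reaches up to 0.748. The 0.113 CPM of conventional 3D culture lay below the limits of the labelled lines, so their 0 counts do not separate them from it. Snai1, the SNAI family member most used in carcinoma, had the same pattern, with 9 counts in conventional 3D culture and 0 in each of the other libraries. Both sat beside the fibroblast markers, which were highest in conventional 3D culture. Whether these markers came from fibroblasts or from the melanoma cells was not tested.

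The Twist1 promoter (GRCm38.p6, chr12:33957421-33957720, plus strand) is shown because Twist1 is a known HIF-1 target in human cells. It holds 1 match to ACGTG, on the other strand and so printed as its complement in capitals, 98 bases before the start, and 0 matches to CACCTG.
Twist1: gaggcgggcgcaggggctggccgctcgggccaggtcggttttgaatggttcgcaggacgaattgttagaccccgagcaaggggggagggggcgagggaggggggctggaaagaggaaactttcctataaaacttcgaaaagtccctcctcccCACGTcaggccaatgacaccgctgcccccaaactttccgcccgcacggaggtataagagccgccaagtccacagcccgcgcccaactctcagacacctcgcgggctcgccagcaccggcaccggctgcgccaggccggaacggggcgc
ACGTG occurs in 19.6% of all promoter windows. Twist1 had 0 counts in the library labelled overexpression, which allows up to 0.179 CPM, where Hif1a was 384 CPM. Conventional 3D culture, with its 6 counts of Twist1, had 542 CPM of Hif1a. Twist1 also had 0 counts in the remaining libraries. Hif1a there was 390.5 CPM in dynamic suspension, 95.1 in the library labelled knockdown and 61.3 in shControl.

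Tcf4 encodes the E protein E2-2, a basic helix-loop-helix partner of TWIST factors, and is not the Wnt effector TCF4 of gene Tcf7l2 (ENSMUSG00000053477, chromosome 18, 69343356 to 69689079, plus strand). From high to low it stood at 64.2 CPM in dynamic suspension, 46.8 CPM in conventional 3D culture, 34.7 CPM in the library labelled overexpression, 27.6 CPM in the library labelled knockdown and 23.6 CPM in shControl. Each neighbouring pair differed beyond counting error, the smallest step being that of the library labelled knockdown to shControl (log2 ratio 0.23, interval 0.07 to 0.38). Dynamic suspension was 2.72-fold above shControl (1.44, interval 1.35 to 1.53) and conventional 3D culture 1.98-fold (0.99, interval 0.89 to 1.08), just inside 2-fold and past it with DESeq2 size factors or TMM from that pair alone. The other E proteins had orders of their own. Tcf12 was highest in conventional 3D culture, at 351 CPM in dynamic suspension, 713 in conventional 3D culture, 429 in the library labelled overexpression, 189 in the library labelled knockdown and 269 in shControl. Tcf3 was 249.5 CPM in the library labelled knockdown, against 90.2 CPM in shControl and 37.1 to 64.5 CPM in the other libraries.

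The Id proteins, which bind E proteins and keep them off DNA, are described beside it. Id2 was 16.9 CPM in dynamic suspension, 23.9 in conventional 3D culture, 29.0 in the library labelled overexpression, 67.3 in the library labelled knockdown and 75.5 in shControl, which is the reverse of the order of Tcf4. Id3 was 1.90, 0.883, 0.536, 3.54 and 6.11 CPM in the same libraries. Against shControl, Id2 had a log2 ratio of -2.15 (interval -2.26 to -2.06) in dynamic suspension and -1.66 (interval -1.75 to -1.57) in conventional 3D culture. The ratios of Id2 and Tcf4 to shControl share that library.

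**Figure D2:**
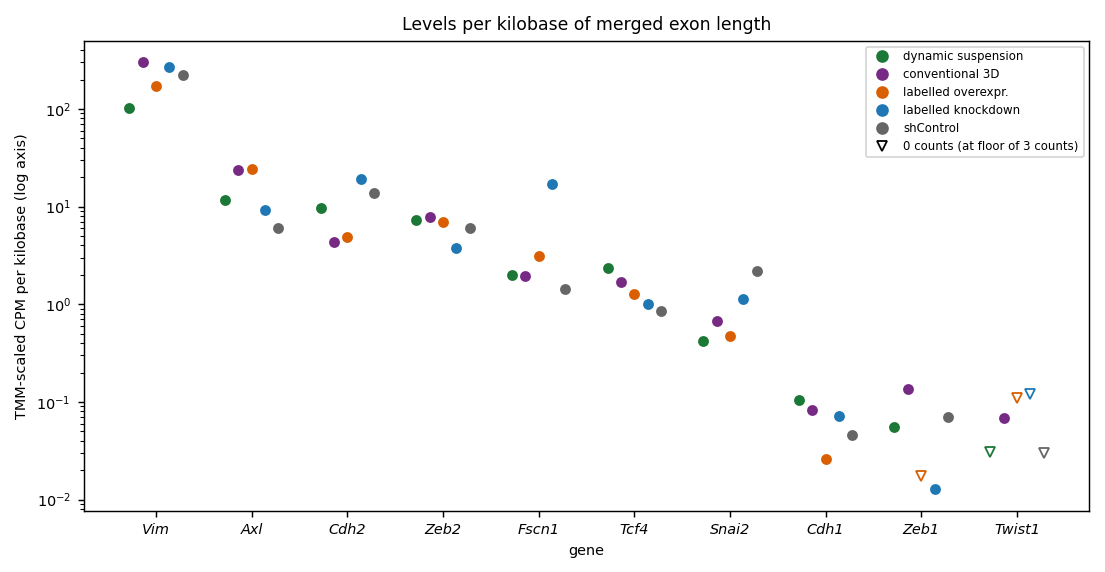
TMM-scaled CPM per kilobase of merged exon length (log axis) for the 10 genes, 1 point per library, with open triangles at the level of 3 counts where a library had 0. Vim lay at 102 to 302 CPM per kilobase, above the other genes in every library, and Cdh1, Zeb1 and Twist1 below 0.14 in every library in which they were counted.

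Levels per kilobase order the genes within a library. Axl ranged from 5.97 to 24.5 CPM per kilobase, Cdh2 from 4.29 to 19.4, Zeb2 from 3.81 to 7.87 and Fscn1 from 1.45 to 17.0. Tcf4 ranged from 0.863 to 2.34 CPM per kilobase and Snai2 from 0.418 to 2.20. Among measured genes Fscn1 stood at percentile 75.3 in the library labelled knockdown and between percentiles 17.3 and 33.2 in the others. The merged exon length counts every annotated isoform and is long for Tcf4 (27382 bases) and Zeb2 (19942 bases), which lowers their values on this scale.

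Between the culture methods, a gene counted as beyond 2-fold at a log2 ratio of 1 or more in size, provided that the pair averaged at least 1 CPM and the counting interval excluded equality. Of the 10 genes 7 reached 1 CPM, and in dynamic suspension against conventional 3D culture 1 was higher (Cdh2) and 2 were lower (Axl and Vim). Over all 12875 genes measured 14.1% were beyond 2-fold, 6.44% higher and 7.64% lower. The call for Axl was lost under the 3 settings named above, and with TMM from protein-coding genes that overlap no other gene Zeb1 was called lower in its place. Scaling by total counts moved all ratios of this comparison by 0.189 and turned the split of all called genes from 829 higher and 984 lower to 1117 higher and 703 lower.

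Against shControl, 1 of 7 measured members was higher in the library labelled knockdown (Fscn1) and 0 were lower, against 8.05% higher and 15.7% lower of all genes, or 23.7% in either direction. In the library labelled overexpression 2 were higher (Axl and Fscn1) and 2 lower (Cdh2 and Snai2), against 16.1% and 20.1% of all genes, or 36.3% together. In dynamic suspension 1 was higher (Tcf4) and 2 lower (Snai2 and Vim), against 13.8% and 14.8% of all genes, or 28.6% together. In conventional 3D culture 1 of 8 measured members was higher (Axl) and 2 lower (Cdh2 and Snai2), against 14% and 14.9% of all genes, or 28.9% together. With so few members, nothing particular to them is read from these shares, and the 4 comparisons share the shControl library. Scaling by total counts moved the last of them by -0.253 and its split from 1815 higher and 1920 lower to 1275 higher and 2740 lower, with the same 3 members called.

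Between the labelled lines, overexpression against knockdown, 1 of 7 measured members was higher (Axl) and 3 were lower (Cdh2, Snai2 and Fscn1), against 17.7% higher and 14.9% lower of 12305 genes, or 32.7% together. The members' median log2 ratio was -0.65 here, and between -0.12 and 0.43 in the other 5 comparisons. The same 4 members were called under each of the scalings tried. This is the comparison whose values are all plain counts and in which Hif1a differed 4.04-fold, at 384 against 95.1 CPM (log2 ratio 2.01, interval 1.93 to 2.10).

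**Figure D3:**
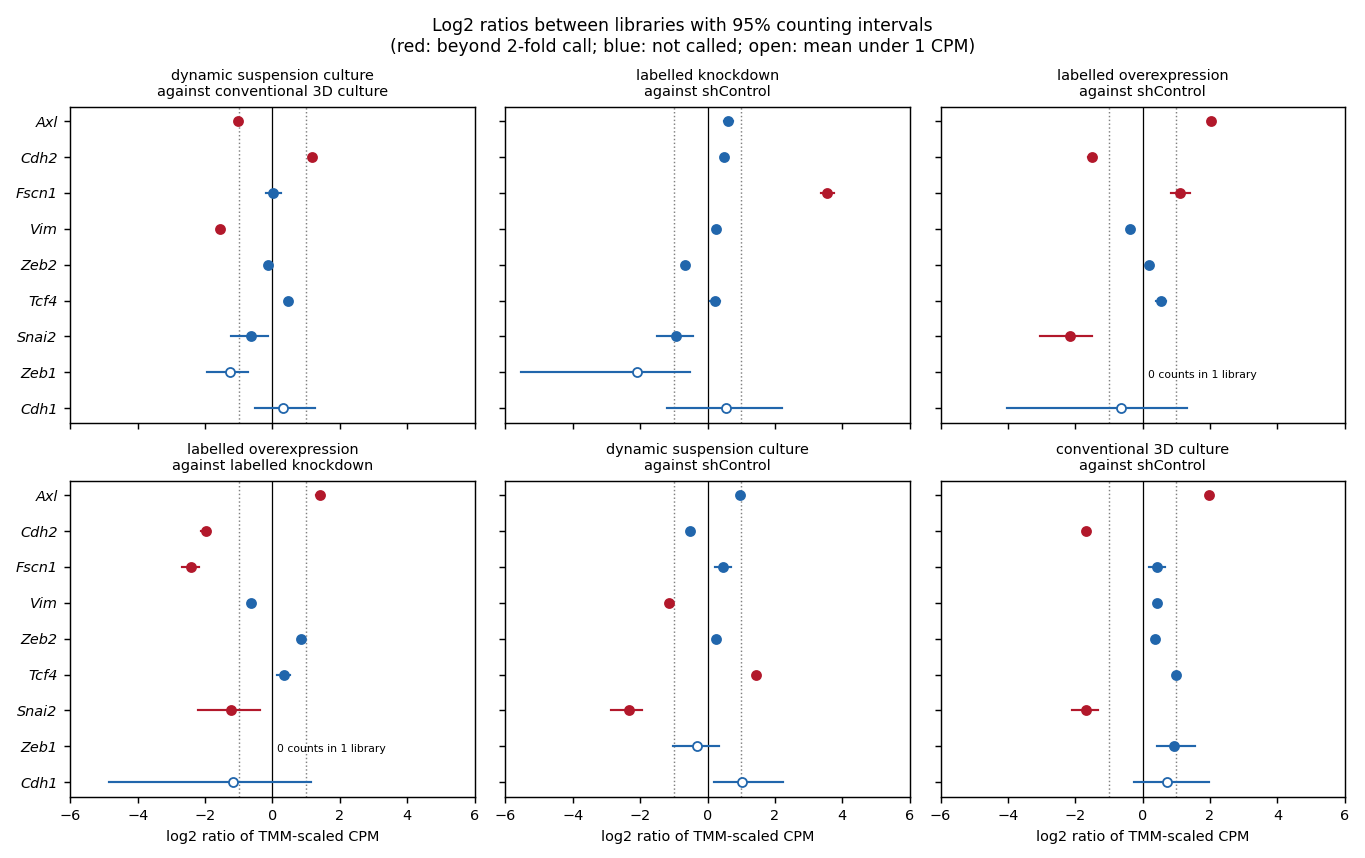
Log2 ratio of TMM-scaled CPM (horizontal axis) of 9 genes in 6 comparisons of 2 libraries, with 95% counting intervals and dotted lines at 2-fold; red marks a call beyond 2-fold, open points a mean under 1 CPM, and Twist1 is left out for its 0 counts. Axl had the log2 ratio 1.42 and Cdh2 -1.98 in overexpression against knockdown, and the ratio of Fscn1 in the library labelled knockdown against shControl, 3.54, is the largest of those in red.

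Ratios of 2 genes within a library do not depend on the scaling between libraries. Axl over Cdh2, per kilobase, was 1.2 in dynamic suspension, 5.51 in conventional 3D culture, 4.99 in the library labelled overexpression, 0.473 in the library labelled knockdown and 0.430 in shControl. Conventional 3D culture and the library labelled overexpression therefore held more Axl than Cdh2 RNA per kilobase. Dynamic suspension also did, by a small margin (interval 1.15 to 1.26), and the library labelled knockdown and shControl held less. Axl over Mitf, the master regulator of the melanocyte lineage, was 0.207, 0.426, 0.960, 0.408 and 0.118 in the same order of libraries. This ratio was highest in the library labelled overexpression, where Mitf was 158 CPM against 314 CPM in shControl. Mitf was lower still in the library labelled knockdown, which is also of plain counts. Zeb2 over Snai2 was 17.4 (interval 13.2 to 23.4) in dynamic suspension, 11.8 (9.32 to 15) in conventional 3D culture and 14.7 (9.04 to 25.8) in the library labelled overexpression. It was 3.36 (2.40 to 4.84) in the library labelled knockdown and 2.75 (2.44 to 3.11) in shControl, so these last libraries lay apart from the first 3.

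**Figure D4:**
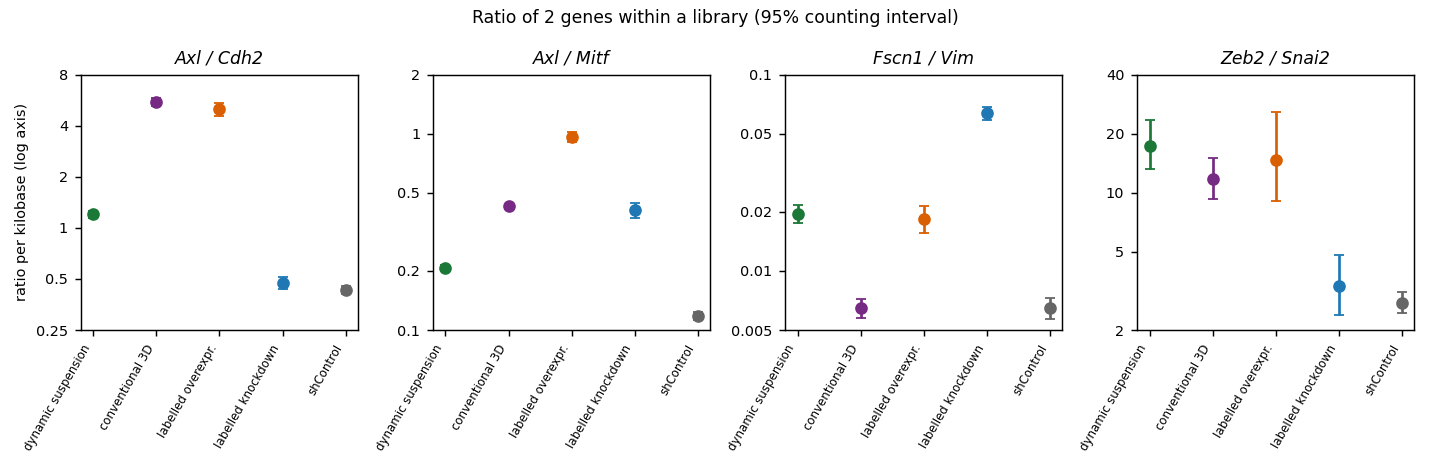
Ratio of 2 genes per kilobase within each library (log axis) with 95% counting intervals, 1 point per library. Axl over Cdh2 was 5.51 in conventional 3D culture and 4.99 in the library labelled overexpression against 0.430 in shControl, and Fscn1 over Vim was 0.0634 in the library labelled knockdown against 0.00644 in shControl.

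Related genes were read from lists of the same biology, beside the shares of all genes beyond 2-fold given above for each comparison and the median of all measured genes, which lay between -0.03 and 0.01 in the 6 comparisons. Of 16 other transcription factors of the epithelial-mesenchymal transition, 5 or 6 reached 1 CPM. In dynamic suspension against conventional 3D culture Sox9 was higher (54.6 against 20.4 CPM) and Prrx1 and Tcf12 were lower (median -0.20). Prrx1, a homeobox factor of mesenchyme, was 0.844 against 2.54 CPM. In the library labelled knockdown against shControl Foxc2 and Tcf3 were higher and Sox9 lower (median -0.17), and in the library labelled overexpression against shControl 0 were higher and Sox9 was lower (-0.20). Against the same control, dynamic suspension had Sox9 higher and Tcf3 lower (0.38), and conventional 3D culture had Prrx1 and Tcf12 higher (0.23). Between the labelled lines Tcf12 was higher and Tcf3 lower in overexpression (-0.00). The 4 Id genes had 3 of 3 measured members lower in the library labelled overexpression (median -1.38) and in conventional 3D culture (-2.22) than in shControl, 2 of 3 lower in dynamic suspension (-1.66) and 0 of 3 in the library labelled knockdown (-0.23). Of all genes 20.1%, 14.9%, 14.8% and 15.7% were lower in those comparisons. Between the labelled lines 2 of 3 were lower in overexpression (-1.21), and between the culture methods 1 of 2 was higher in dynamic suspension (Id3, median 0.28).

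Among 18 other cadherins and catenins, Cdh13, Cdh19 and Jup differed between libraries. T-cadherin, the product of Cdh13, is a membrane-anchored cadherin without a cytoplasmic tail, and stood at 0.579 CPM in dynamic suspension, 15.5 in conventional 3D culture, 41.1 in the library labelled overexpression, 11 in the library labelled knockdown and 3.17 in shControl. Dynamic suspension was the lowest, at a log2 ratio of -4.63 (interval -5.27 to -4.25) to conventional 3D culture. Cdh19, a cadherin of the neural crest and Schwann cell lineage, was 143, 62.9, 80.3, 16.5 and 55.4 CPM in the same order of libraries. Jup, plakoglobin, was 38.9, 39.5 and 44.1 CPM in dynamic suspension, conventional 3D culture and the library labelled overexpression, against 16.1 and 11.1 CPM in the library labelled knockdown and shControl. Of the list, 10 or 11 genes were measured in each comparison. In dynamic suspension against conventional 3D culture 1 was higher and 2 lower (median 0.10). The counts were 1 and 2 in the library labelled knockdown against shControl (0.22) and 2 and 1 in the library labelled overexpression against shControl (-0.15). They were 4 and 1 in overexpression against knockdown (-0.40). Against shControl the counts were 2 and 2 in dynamic suspension (0.28) and 3 and 0 in conventional 3D culture (0.16). Ctnnd1 is counted among the lower ones in both labelled lines, but 4482 of its exon bases overlap other genes and the kinds of value differ, so its value is uncertain.

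The cytoskeletal lists come next. Of 38 measured genes of actin bundling and invasion, 1 was higher and 11 were lower in dynamic suspension against conventional 3D culture (median -0.37). Espn, an actin bundler like fascin, was the exception at 134 against 14.6 CPM, while Diaph3, a formin that elongates actin filaments, was 4.50 against 23.6 CPM and Acta2, smooth muscle actin, which fibroblasts also express, 2.22 against 10.1 CPM beside the fibroblast marker sums of 47.0 and 137 CPM, whose part was not tested. Against shControl, dynamic suspension had 1 of 34 higher and 9 lower (-0.36), conventional 3D culture 8 of 38 higher and 2 lower (0.05), the library labelled overexpression 1 of 35 higher and 8 lower (-0.39), and the library labelled knockdown 4 higher and 4 lower (0.13). Between the labelled lines 5 of 35 were higher and 13 lower in overexpression (-0.69), with the actin crosslinker Flna at 418 against 1461 CPM. The other fascins, Fscn2 and Fscn3, stayed below 0.5 CPM in every library.

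Of 15 other intermediate filament and lamin genes, 8 or 9 were measured in each comparison. In dynamic suspension against conventional 3D culture 1 was higher and 3 were lower (median -0.64). Lmna, the A-type lamin, was 128 against 359 CPM, and Nes, nestin, a filament of neural stem cells that assembles with vimentin, was 47.8 against 19.7 CPM. Nes was 24.1 CPM in the library labelled overexpression, 120 CPM in the library labelled knockdown and 68.6 CPM in shControl, the same order as Cdh2. The B-type lamin Lmnb1 was 7.81, 15.1 and 9.53 CPM in dynamic suspension, conventional 3D culture and the library labelled overexpression, against 187 and 129 CPM in the library labelled knockdown and shControl. The counts were 1 higher and 0 lower in the library labelled knockdown against shControl (median 0.51), 4 and 3 in the library labelled overexpression against shControl (0.72) and 4 and 3 in overexpression against knockdown (0.71). Dynamic suspension and conventional 3D culture each had 3 higher and 3 lower than shControl (-0.52 and 0.54).

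Signals that induce the mesenchymal state were read from 20 genes of the TGF-beta pathway. Tgfb1, the ligand, was 88.7 CPM in dynamic suspension, 195 in conventional 3D culture, 107.6 in the library labelled overexpression, 32.6 in the library labelled knockdown and 23.2 in shControl, so its 3 highest libraries were those with the most Axl. Tgfb1 had a log2 ratio of 2.21 (interval 2.11 to 2.32) in the library labelled overexpression against shControl. Smad7, a target and inhibitor of the pathway, did not share the order, at 3.33, 0.752, 4.64, 9.71 and 6.98 CPM in the same libraries. In each comparison 17 to 19 of the genes were measured. Of these, 4 were higher and 3 lower in dynamic suspension against conventional 3D culture (median 0.31), and 2 and 5 in overexpression against knockdown (-0.23). Against shControl the counts were 4 and 2 in dynamic suspension (0.39), 3 and 2 in conventional 3D culture (0.23), 2 and 2 in the library labelled overexpression (0.09) and 4 and 2 in the library labelled knockdown (0.35).

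**Figure D5:**
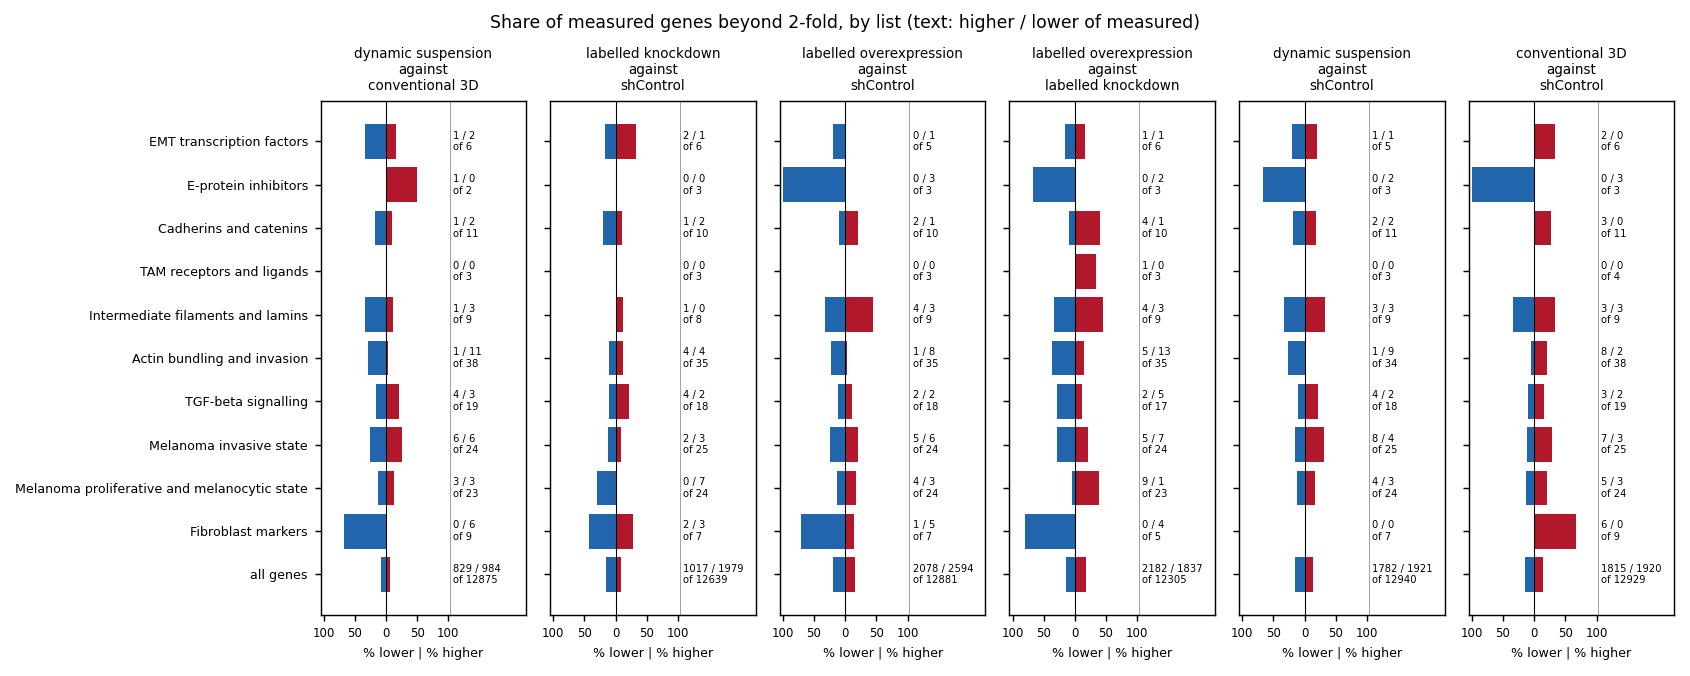
Share of measured genes beyond 2-fold (horizontal axis, percent; blue lower, red higher) in 10 lists and over all genes in 6 comparisons, with the counts printed at the right as higher / lower of measured. In dynamic suspension against conventional 3D culture 11 of 38 actin genes and 6 of 9 fibroblast markers were lower, against 984 of 12875 over all genes.

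Genes that mark the melanoma states in human tumours were read in the same way. Of 36 invasive-state genes, 24 or 25 were measured in each comparison. In dynamic suspension against conventional 3D culture 6 were higher and 6 lower (median -0.13), against 6.44% and 7.64% of all genes. The counts were 2 and 3 in the library labelled knockdown against shControl (0.03) and 5 and 6 in the library labelled overexpression against shControl (-0.16). They were 5 and 7 in overexpression against knockdown (-0.11). Dynamic suspension had 8 higher and 4 lower than shControl (-0.04) and conventional 3D culture 7 and 3 (0.47). Itgb3, an integrin subunit of invasive melanoma, stood at 145 CPM in dynamic suspension, 759 in conventional 3D culture, 396 in the library labelled overexpression, 24.0 in the library labelled knockdown and 41.8 in shControl. Fn1, fibronectin, was 21.3, 44.7, 13, 130 and 84.9 CPM in the same libraries, highest where Itgb3 was lowest. The other invasive markers Wnt5a, Ror1, Ror2 and Il6 stayed below 0.5 CPM in every library.

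Of 26 genes of the proliferative and melanocytic state, 23 or 24 were measured in each comparison. In dynamic suspension against conventional 3D culture 3 were higher and 3 lower (median -0.33). The library labelled knockdown had 0 higher and 7 lower of 24 measured genes than shControl (-0.65), against 8.05% higher and 15.7% lower of all genes, with Trpm1, a melanocyte ion channel, at 15.6 against 339 CPM and Tyr at 364 against 942 CPM. The library labelled overexpression had 4 higher and 3 lower than shControl (0.11) and 9 higher and 1 lower than the library labelled knockdown (0.61), with Cited1 at 280 against 16.9 CPM. Dynamic suspension had 4 higher and 3 lower than shControl (0.13) and conventional 3D culture 5 and 3 (0.43). The library labelled overexpression thus had more Axl than shControl together with more Oca2, a melanosome transporter (165 against 27.5 CPM). Other genes of the list were lower there, Gpnmb, a melanosome glycoprotein, at 2362 against 9828 CPM, and Kit, the receptor of the melanoblast growth factor, at 0.119 against 4.84 CPM, on 2 counts against 298 (ratio 0.0246, interval 0.00297 to 0.0897). Mitf, at 158 against 314 CPM, was 1.98-fold lower and so just inside 2-fold, and Tyr was 1378 against 942 CPM. Mitf was lower still in the library labelled knockdown. Both labelled lines hold plain counts, so in these ratios to shControl the kind of value and the group cannot be told apart. The lists for both states share Met, which encodes a receptor tyrosine kinase.

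The genes nearest to a member in pattern were found for the 4 members that averaged at least 1 CPM and spanned at least 4-fold, by the root mean square difference of centred log2 levels over the 5 libraries among 9517 genes of at least 10 CPM. Nearest to Axl were Trappc9 (difference 0.0936), Gpr137 (0.115) and Neil1 (0.120), and 62 genes lay within 0.25. Nearest to Cdh2 were Kirrel (0.128), Nes (0.147) and Smg5 (0.154), and to Snai2 Nap1l1 (0.0984), Alg8 (0.122) and the pseudogene Hspd1-ps3 (0.140), with 10 and 21 genes within 0.25. Fscn1 had no close neighbour: the nearest were Boc (0.489), Sipa1 (0.527) and Ccdc88c (0.544), and 0 genes lay within 0.25. Boc stood at 12.4 CPM in dynamic suspension, 12.2 in conventional 3D culture, 23.3 in the library labelled overexpression, 79.9 in the library labelled knockdown and 19.0 in shControl. With only 5 libraries, likeness of pattern is a description.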

How the data were processed

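RNA of 5 libraries was sequenced as paired 150 bp reads with inserts near 300 bp, per the labels' protocols, and cutadapt, HISAT2 and StringTie with builds GRCm38.p6 and mm10 are named in the submitters' processing notes. No source used here gives the counting program or its annotation. The deposited values are counts for the libraries labelled overexpression and knockdown. Those of the other 3 libraries are estimated counts by their pattern: 29.2%, 28.1% and 26.8% of the deposited values from 1 to 40 in dynamic suspension, conventional 3D culture and shControl are multiples of 4, against 17.3% and 16.1% in overexpression and knockdown. Columns were matched through the sample descriptions, with 0 left over. All 54100 identifiers matched GENCODE M21. Promoters come from RefSeq (GRCm38.p6), found for Axl, Zeb2, Twist1, Vim and Fscn1 among the members searched. None of these windows holds CACCTG.

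Libraries were scaled by TMM factors (edgeR 4.0.16, R 4.3.3) between 0.869 and 1.09. Log2 ratios used a prior count of 2, with a 95% Clopper-Pearson interval for the share of a pair's counts in 1 library; intervals and the floor of 3 counts per library cover counting error only and are approximate for estimated counts. Ratios were computed over the whole table with code tested on simulated data. DESeq2 1.42.0 size factors were 1 of 9 alternatives. The members and the 14 related lists were chosen with earlier results of these data known, and a list name without a match (Tks4) was left out. Some list genes are not reported here. Genes named are the members, Hif1a and Mitf, up to 4 called genes per list and comparison with the largest ratios, and the 3 nearest in pattern; Tyro3, Mertk, Gas6, Snai1, Fscn2, Fscn3, Wnt5a, Ror1, Ror2, Il6, Sox10, Epcam, Cldn3, Ptprc, Cdh5, Tek and Tie1 fall outside that rule and were chosen after their values were seen.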

Additional observations from a re-analysis of the deposited data

How the results depend on the processing

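No paired analysis was possible because each group has 1 library. For the same reason no library could be left out, and depth limits Cdh1, Zeb1, Twist1 and Snai2. Of 360 log2 ratios of single members under the alternatives, 315 stayed within the counting interval and 45 moved outside it, with 0 called ratios changing sign. Of the counts of members, the library labelled knockdown against shControl went from 1 to 2 with TMM from protein-coding genes that overlap no other gene (Snai2 was added, and all ratios moved by -0.103), to 2 with no filter on low counts and to 4 at 1.5-fold. Dynamic suspension against conventional 3D culture went from 3 to 5 with no filter, overexpression against shControl from 4 to 2 at 10 CPM, and conventional 3D culture against shControl from 3 to 5 at 1.5-fold. Counts over all genes are given in the order dynamic suspension against conventional 3D culture, knockdown, overexpression against shControl, overexpression against knockdown, then dynamic suspension and conventional 3D culture against shControl. They were 843, 1551, 2783, 2560, 2337 and 2287 at a mean of at least 10 CPM and 4009, 5734, 7330, 6695, 6634 and 6630 at 1.5-fold. With no filter they were 4685, 4928 and 7441 for the first 3 and 6740 and 6945 for the last. These follow from the thresholds themselves. Prior count 0.5, DESeq2 size factors, TMM from the pair alone, total counts and thinning to the smallest library kept every count within 1.5 times.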

Other observations

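Tight junction scaffolds were the epithelial-list genes that were expressed, with 3 of 20 listed genes at 1 CPM or more in each library. Tjp3 was 12.1 CPM in dynamic suspension, 17.6 in conventional 3D culture, 17.4 in the library labelled overexpression, 8.07 in the library labelled knockdown and 3.91 in shControl, while Epcam and Cldn3 had 0 counts throughout. Against shControl, Tjp3 was beyond 2-fold in the library labelled knockdown (log2 ratio 1.04), the library labelled overexpression (2.14), dynamic suspension (1.62, with Tjp1 at 1.06) and conventional 3D culture (2.15). Between the culture methods 0 of 3 were called (median -0.06), and Tjp3 was higher in overexpression against knockdown (log2 ratio 1.11).

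Of 8 measured HIF genes, 4 were higher and 0 lower in the library labelled overexpression against shControl (median 1.00). These were Hif1a itself, the targeted gene (log2 ratio 2.65), and Egln1, Egln3 and Epas1. Against the same control the counts were 4 and 0 in dynamic suspension (0.77) and 2 and 0 in conventional 3D culture (0.56), both with Hif1a among the higher genes. They were 0 and 0 in the library labelled knockdown (0.37). In dynamic suspension against conventional 3D culture Egln1 and Vhl were higher (0.05), and in overexpression against knockdown Hif1a and Egln3 were (0.62).

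Markers of other cells were sparse. Of 10 immune markers 1 or 2 reached 1 CPM in a comparison. Ptprc had counts in conventional 3D culture alone (0.15 CPM), and Cd68, which macrophages and melanoma lysosomes share, was 13.2, 12.4, 8.39, 0.787 and 3.56 CPM in dynamic suspension, conventional 3D culture, overexpression, knockdown and shControl. Of 8 endothelial markers, Cdh5, Tek and Tie1 had 0 counts in all 5 libraries, and Vwf was 10.7 CPM in conventional 3D culture against 1.04 to 4.88 CPM elsewhere. Fibroblast markers were lower in 6 of 9 measured genes in dynamic suspension against conventional 3D culture (median -1.96), in 5 of 7 in overexpression against shControl, where 1 was higher, and in 4 of 5 in overexpression against knockdown. Against shControl 6 of 9 were higher in conventional 3D culture (1.67), 2 higher and 3 lower of 7 in knockdown, and 0 of 7 in dynamic suspension (-0.08).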
